A study of Oryctolagus cuniculus with 8 samples.

Results

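The genes described here are the mitotic cyclins CCNB1, CCNB2 and CCNF and the cyclin-dependent kinase adaptor CKS2. With them go UBE2C, FBXO5 and MAD2L1, regulators of the anaphase-promoting complex, and PTTG1, which that complex marks for destruction. These 8 genes were selected on the measured difference between the dexamethasone and saline samples of this study. Their values in that comparison are therefore a description and carry no test. All 8 of the 8 genes had at least 1 probe on the array, out of 23456 genes or transcripts with a probe, and 24 probes carried one of their names.

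Forebrain RNA came from New Zealand rabbit pups that were delivered prematurely by C-section on day 29 of a 32-day gestation and killed at postnatal day 14. Pups of the control group (4 samples) received saline vehicle, and those of the treated group (4 samples) received high-dose dexamethasone, a synthetic glucocorticoid, at 0.25 mg/kg into muscle 2 times a day for at most 5 days. Both groups share the preterm delivery, the incubator and the formula feeding, so no term-born or unfed control stands behind either. The labels give neither litter nor sex, nor the days on which the injections fell, and the whole forebrain was taken, with no cell type sorted.

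Entry into mitosis depends on cyclin B bound to the kinase CDK1. Exit from it depends on the anaphase-promoting complex (APC/C), a ubiquitin ligase that marks cyclin B and securin for destruction once every chromosome is attached to the spindle. In the developing forebrain these genes are transcribed mainly in dividing cells, among them neural progenitors and oligodendrocyte precursors, and they are expressed most strongly in G2 and M phase.

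Each probe is a DNA oligonucleotide of 60 bases, and the probe that stands for each gene is printed here 5′ to 3′, with the outermost probes of UBE2C and CKS2 and all those of MAD2L1 and FBXO5, as the scanner files give them. UBE2C has 5 probes that start 1 base apart in the transcript, and CKS2 has 5 whose starts lie 1 or 2 bases apart. Their outermost pairs share the bases in capitals.

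UBE2C A_04_P073816: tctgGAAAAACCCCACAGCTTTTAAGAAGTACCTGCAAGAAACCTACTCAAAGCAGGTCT
UBE2C A_04_P073812: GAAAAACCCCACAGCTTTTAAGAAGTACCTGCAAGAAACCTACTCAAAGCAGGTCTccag
CKS2 A_04_P070646: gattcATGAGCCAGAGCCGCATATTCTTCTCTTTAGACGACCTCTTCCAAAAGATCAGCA
CKS2 A_04_P070642: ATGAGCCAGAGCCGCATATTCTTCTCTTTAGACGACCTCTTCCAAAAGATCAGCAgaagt

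The UBE2C pair shares 56 bases and the CKS2 pair 55, so the probes of each of these genes measure nearly the same stretch and are not independent readings of it. The array annotation places CKS2 A_04_P070642 at chr1:78482192-78483244 of the rabbit build oryCun2, minus strand. That footprint of 1053 bases for a probe of 60 means that the probe joins pieces that are apart in the genome. The annotation gives the UBE2C probes no position. It lists 4 of the 5 CKS2 probes, A_04_P070642 among them, under a further transcript as well, so these can read both. The remaining probe, A_04_P070645, shares runs of 59 bases with A_04_P070646 and with A_04_P070644, which are listed under both, so it may read both too.

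The probes of MAD2L1 and FBXO5 cover different, at most partly overlapping stretches of their transcripts and gave unequal differences, so all 7 are shown. In MAD2L1 the capitals mark bases shared with a neighbouring probe, and FBXO5's probes follow one another without overlap.

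MAD2L1 A_04_P041730: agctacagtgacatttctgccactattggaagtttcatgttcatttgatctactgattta
MAD2L1 A_04_P041729: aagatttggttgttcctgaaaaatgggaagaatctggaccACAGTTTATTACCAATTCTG
MAD2L1 A_04_P041728: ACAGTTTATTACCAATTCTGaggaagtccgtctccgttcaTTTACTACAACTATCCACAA
MAD2L1 A_04_P041727: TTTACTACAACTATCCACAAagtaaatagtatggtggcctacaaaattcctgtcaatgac
FBXO5 A_04_P070819: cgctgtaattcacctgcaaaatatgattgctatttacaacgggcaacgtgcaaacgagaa
FBXO5 A_04_P070818: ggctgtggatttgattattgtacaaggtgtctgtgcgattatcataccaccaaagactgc
FBXO5 A_04_P070817: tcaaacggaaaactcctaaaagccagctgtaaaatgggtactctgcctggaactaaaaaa

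MAD2L1 A_04_P041728 is annotated at chr15:95191439-95191498 and FBXO5 A_04_P070817 at chr12:143099478-143099537, both on the minus strand of oryCun2. The MAD2L1 probes cover bases 407 to 614 of the transcript with a gap, and the FBXO5 probes cover bases 1128 to 1307. The annotation used here does not mark exons or untranslated regions.

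The B-type cyclins, CCNF and PTTG1 are shown by the probe that stands for each gene, the one with the highest mean.

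CCNB1 A_04_P061927: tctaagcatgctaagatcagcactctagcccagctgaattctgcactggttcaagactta
CCNB2 A_04_P046092: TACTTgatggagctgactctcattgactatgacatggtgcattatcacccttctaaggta
CCNF A_04_P054654: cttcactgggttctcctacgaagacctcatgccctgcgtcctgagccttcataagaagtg
PTTG1 A_04_P036627: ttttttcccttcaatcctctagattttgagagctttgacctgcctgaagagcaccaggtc

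Here capitals mark the 5 bases that the CCNB2 probe shares with its neighbour A_04_P046093. CCNB1 A_04_P061927 lies at chr11:85371159-85371218 on the plus strand and CCNB2 A_04_P046092 at chr17:13290115-13290174 on the minus strand. The PTTG1 probe is annotated at chr3:41837117-41839544 on the plus strand, a footprint of 2428 bases, and is also listed under another transcript. CCNF has no position in the annotation. A further probe described on the array as cyclin B1-like belongs to CCNO by its accession and is no member.

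The 8 samples lay on 4 2-colour arrays, and each array carried 2 samples of 1 group, one labelled with Cy3 and one with Cy5. Both saline arrays were on 1 slide with 1 scan day and both dexamethasone arrays on another, so slide, scan day and treatment cannot be told apart. Between 39.1% and 59.7% of spots per sample were well above background in the saline group and between 47.7% and 64.3% in the dexamethasone group, and the number of arrays limits the precision. Outlier spots numbered 932 to 3022 per saline sample and 197 to 509 per dexamethasone sample. After normalisation all 10 spike-in controls, RNA added to each sample before labelling, were lower in the dexamethasone arrays, by −0.56 to −0.30 log2 units with a median of −0.41. Of the neuronal markers, which mark neural tissue but no brain region, all 7 with a probe were well above background in 8 of 8 samples. Of the astrocyte markers GFAP passed in 3 samples, and of the oligodendrocyte markers MOBP passed in 2.

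All 8 genes were lower in the dexamethasone forebrains than in the saline ones, with a median difference of −0.39 log2 units and a range of −0.59 to −0.24. UBE2C and CKS2 lay lowest, and PTTG1 nearest to 0. In 6 of the 8 genes every dexamethasone sample lay below every saline sample, where the share over all 11273 genes tested was 7.42%, and nothing is read from this count because the genes were chosen by the same contrast. Over all genes tested the median difference was 0.02 and 45.7% lay below 0. The members' median was close to the spike-in controls' median of −0.41, and the part of slide, scan day and spike-in shift in the members' values was not tested. In whole forebrain RNA, fewer dividing cells and less of these RNAs per cell cannot be told apart.

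**Figure D1:**
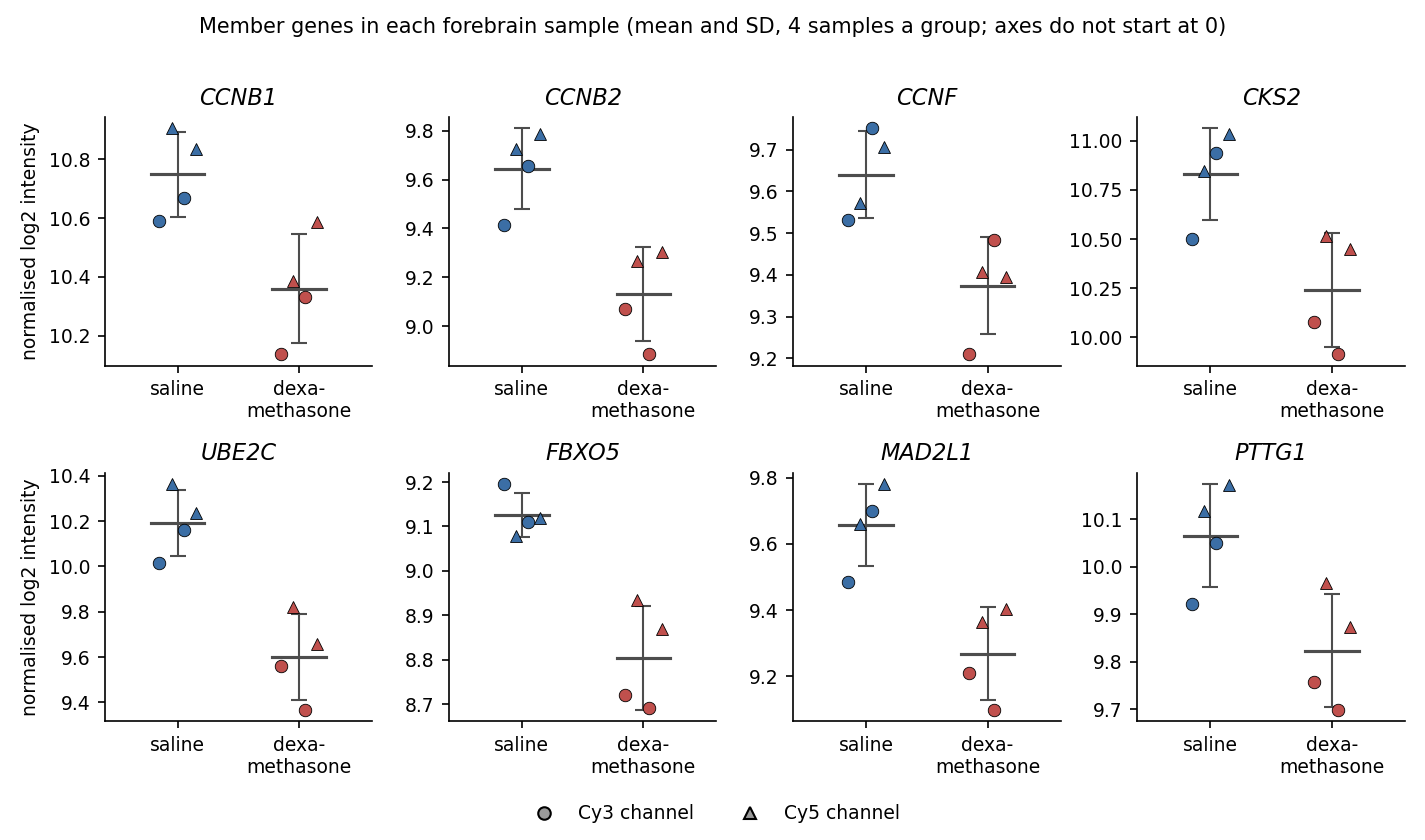
Normalised log2 intensity (y axis, which does not start at 0) of the 8 genes in each of the 4 saline and 4 dexamethasone samples, with circles for Cy3, triangles for Cy5, and bars for the group mean and SD. The groups do not overlap in 6 genes, and they overlap in CKS2 and PTTG1.

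All values that follow are log2 of intensity after background correction and normalisation, and the offset of 50 added before the log makes differences of dim probes smaller than they were in the signal. CCNB1, the cyclin whose binding activates CDK1 at mitotic entry, read 10.59, 10.90, 10.67 and 10.83 in saline samples 1 to 4. The dexamethasone samples read 10.14, 10.39, 10.33 and 10.59 in the same order. Dexamethasone sample 4 reached 10.586 and saline sample 1 stood at 10.590, so the groups were apart only narrowly.

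The CCNB1 means were 10.75 ± 0.15 (SD, n = 4) and 10.36 ± 0.18 (SD, n = 4), and the fitted difference was −0.39 with an SE of 0.10. On the linear scale the saline level was 1.31 times the dexamethasone level. Its other probe, A_04_P061928, gave −0.57 (SE 0.13) with groups that did not overlap, and in saline its samples ranged from 10.00 to 10.68.

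CCNB2, the other main B-type cyclin and a partner of CDK1 in the Golgi region, read 9.41, 9.73, 9.65 and 9.79 in the saline samples. It read 9.07, 9.27, 8.89 and 9.30 in the dexamethasone samples. The lowest saline value, in sample 1, stood above the highest dexamethasone value, in sample 4. The means were 9.65 ± 0.16 and 9.13 ± 0.19 (SD, n = 4 each), a difference of −0.51 with an SE of 0.10. Its other probes gave −0.39 and −0.29, and in all 3 the groups were apart.

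CCNF is an F-box protein that names the F-box family and directs an SCF ubiquitin ligase, and it does not activate a kinase. Its single probe read 9.53, 9.57, 9.75 and 9.71 in saline and 9.21, 9.41, 9.48 and 9.39 in dexamethasone. The groups were apart, with dexamethasone sample 1 lowest of all. The means of 9.64 ± 0.10 and 9.37 ± 0.12 (SD, n = 4 each) differed by −0.27 (SE 0.11).

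CKS2, a small protein that docks on cyclin-dependent kinases, read 10.50, 10.85, 10.94 and 11.04 in saline. In dexamethasone it read 10.08, 10.52, 9.91 and 10.45. Dexamethasone sample 2 lay just above saline sample 1, so the groups overlapped by that pair. The difference was −0.59 with an SE of 0.14, between means of 10.83 ± 0.23 and 10.24 ± 0.29 (SD, n = 4 each), the widest spread among the 8 genes. Over its 5 probes the difference ran from −0.67 to −0.44, and in 3 of them the groups were apart.

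UBE2C is the E2 enzyme that hands the first ubiquitin to substrates of the APC/C. It read 10.01, 10.36, 10.16 and 10.24 in saline and 9.56, 9.82, 9.37 and 9.66 in dexamethasone. Every dexamethasone sample was below every saline sample, and dexamethasone sample 3 was the lowest. The means were 10.19 ± 0.15 and 9.60 ± 0.19 (SD, n = 4 each), the difference was −0.59 (SE 0.10), and the saline level was 1.51 times the dexamethasone level.

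The 5 UBE2C probes gave −0.60 to −0.45, and the groups were apart in 4 of them. The exception was A_04_P073814, where saline sample 3 at 9.77 lay below dexamethasone sample 4 at 9.79. Although these probes share at least 56 bases, the saline arrays ranked differently on them. Array 2 minus array 1 was −0.41 on A_04_P073816 and −0.54 on A_04_P073814, against 0.12, 0.09 and 0.01 on the others. Within the saline group the array difference thus ran from −0.54 to 0.12 over near-identical probes, beside group differences of −0.60 to −0.45. The dexamethasone arrays differed by −0.18 to 0.18. On the CKS2 probes, near-identical too, saline array 2 minus array 1 ran from −0.22 to 0.38. There the dexamethasone arrays differed by −0.12 to −0.03.

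FBXO5, also called EMI1, holds the APC/C inactive from S phase to early mitosis. On A_04_P070817 it read 9.20, 9.08, 9.11 and 9.12 in saline and 8.72, 8.94, 8.69 and 8.87 in dexamethasone. The saline samples were tightly grouped and stood above all dexamethasone samples. The means were 9.13 ± 0.05 and 8.80 ± 0.12 (SD, n = 4 each), with a difference of −0.32 (SE 0.10). The adjacent probes printed above gave −0.25 (SE 0.10) and −0.10 (SE 0.13), both with overlapping groups. The mean of the 3 probes gave −0.22.

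MAD2L1, the spindle checkpoint protein MAD2 that holds back the APC/C coactivator CDC20, read 9.49, 9.66, 9.70 and 9.78 in saline on A_04_P041728. It read 9.21, 9.36, 9.10 and 9.40 in dexamethasone, and no sample crossed over. The means of 9.66 ± 0.12 and 9.27 ± 0.14 (SD, n = 4 each) differed by −0.39 (SE 0.10).

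The 3 other MAD2L1 probes gave smaller differences, with overlapping groups. A_04_P041729 and A_04_P041727, which each share 20 bases with it, gave −0.19 (SE 0.13) and −0.12 (SE 0.10), and A_04_P041730, further towards the 5′ end, gave −0.00 (SE 0.09). On that probe the saline samples lay from 8.80 to 8.97 and the dexamethasone samples from 8.79 to 9.02. The mean over the 4 probes was −0.17 (SE 0.09), so the size of the MAD2L1 difference depended on the probe that stood for it.

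PTTG1, or securin, restrains separase until the APC/C destroys it. It read 9.92, 10.12, 10.05 and 10.17 in saline and 9.76, 9.97, 9.70 and 9.87 in dexamethasone. Dexamethasone sample 2 lay above saline sample 1, so the groups overlapped. The means were 10.07 ± 0.11 and 9.82 ± 0.12 (SD, n = 4 each), and the difference of −0.24 (SE 0.09) was the smallest of the 8. In the authors' deposited series table it was −0.07 (SE 0.18).

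**Figure D2:**
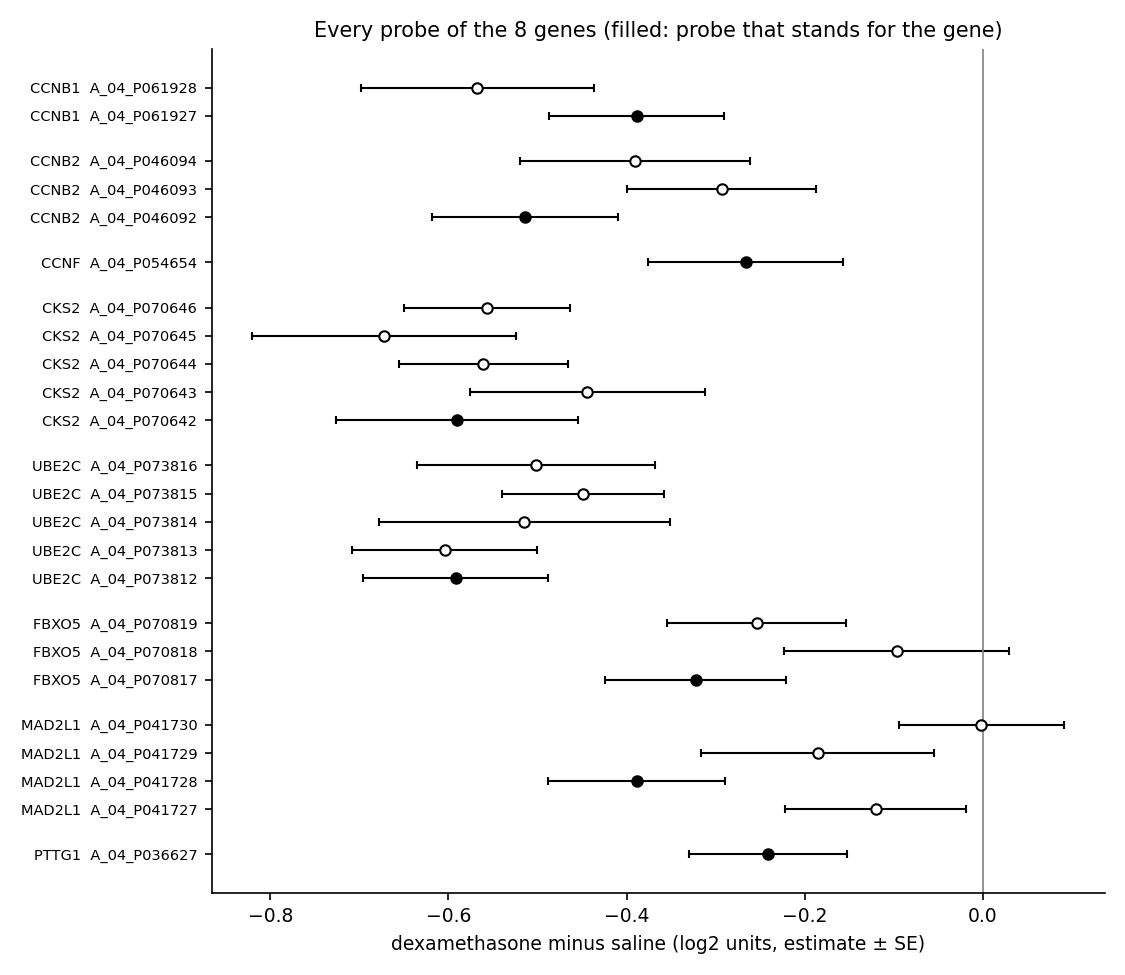
Difference between dexamethasone and saline in log2 units (x axis, estimate ± SE) for each of the 24 probes of the 8 genes, with filled points for the probe that stands for a gene. All 24 points lie below 0, from −0.67 for a CKS2 probe to −0.00 for MAD2L1 A_04_P041730.

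All 24 probes passed the filter on dim spots, each being well above background in at least 6 of the 8 samples. All 24 gave a difference below 0, where 43.6% of all 20707 probes tested did. In 15 of the 24 the groups were apart with dexamethasone lower, beside 5.86% of all probes tested, and again this is the contrast the genes were picked from. The 9 probes with overlapping groups were 3 of MAD2L1, 2 of FBXO5, 2 of CKS2, 1 of UBE2C and the single PTTG1 probe.

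**Figure D3:**
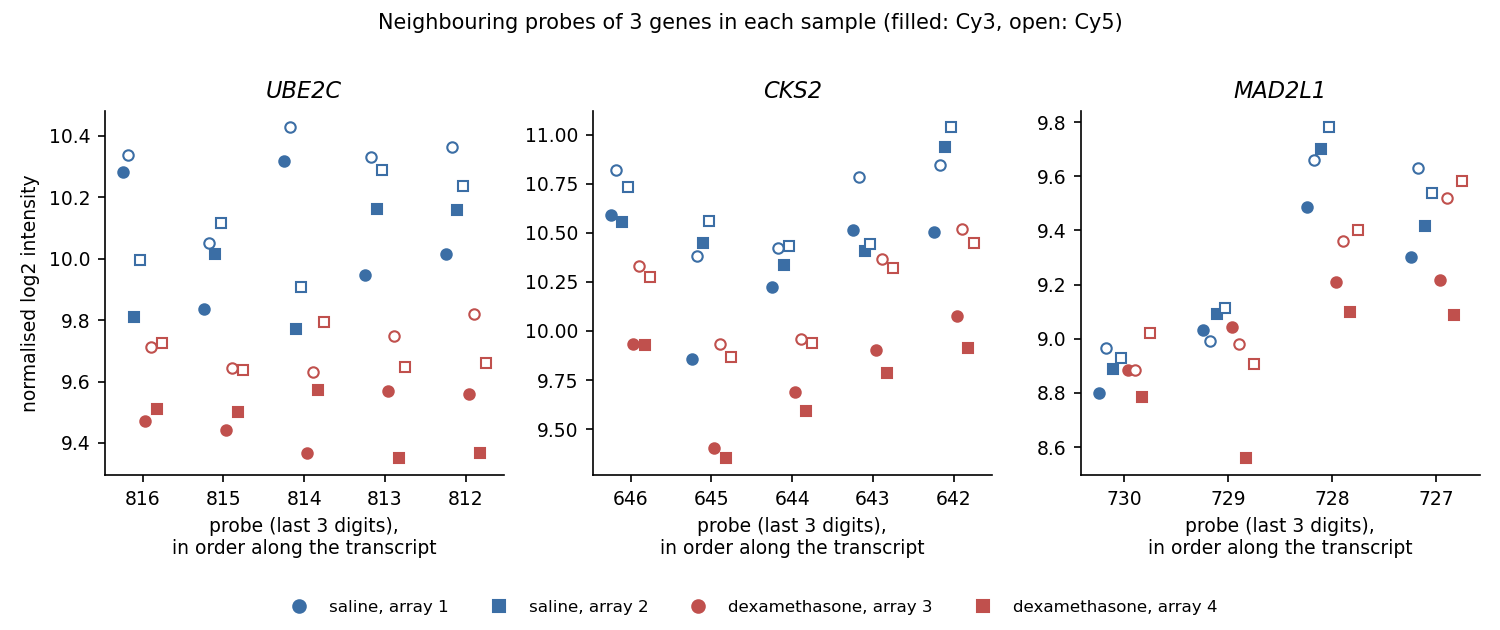
Normalised log2 intensity (y axis, not from 0) of every UBE2C, CKS2 and MAD2L1 probe in each sample, with probes in order along the transcript, circles and squares for the 2 arrays of a group, filled symbols for Cy3 and open ones for Cy5. On UBE2C A_04_P073816 and A_04_P073814 the squares of saline array 2 sit below the circles of array 1, and on MAD2L1 A_04_P041730 the groups lie over each other.

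The samples of each dye were also set side by side, though they come from different pups, so that dye and sample cannot be told apart within a group. In the dexamethasone group the Cy5 samples, numbers 2 and 4, read above the Cy3 samples by 0.05 for CCNF to 0.49 for CKS2, in all 8 genes. In the saline group the same difference ran from −0.05 for FBXO5 to 0.24 for CCNB1. Since each group held both dyes equally, the groups could be set apart within a dye, 2 samples against 2. The differences ran from −0.72 to −0.26 in Cy3 and from −0.56 to −0.20 in Cy5. Within each dye all 8 genes had their 2 dexamethasone samples below their 2 saline samples. This pattern was met by 9.16% of all genes tested, where a gene with a missing value counted as not meeting it. Nothing is read from this count either, because the genes were chosen by the same contrast. CKS2 and PTTG1, whose groups overlapped when the dyes were pooled, were apart within each.

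With the dye removed, the SD of single genes within groups ran from 0.06 for PTTG1 to 0.18 for CKS2. The mean deviation of the 8 genes from the average of each dye was 0.15, 0.15, 0.32 and 0.20 in saline samples 1 to 4 and −0.22, −0.17, −0.25 and −0.19 in the dexamethasone samples. Saline sample 3 therefore stood highest and dexamethasone sample 3 lowest, and both were Cy3 samples.

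The wider machinery around these genes was described from 6 lists of related genes. Of 125 related genes listed, 94 had a probe and 67 were tested, and 31 of these lay above 0 and 36 below, with a median of −0.03. By limma with Benjamini-Hochberg adjustment over all genes, 0 of the 67 were called, beside 0.0621% of all genes tested (0.0444% called lower), and the smallest adjusted p was 0.302. At an unadjusted p under 0.05 there were 13 of the 67, and 1548 of the 11273 genes tested. These lists were written with earlier results of the same data known.

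Of the subunits and coactivators of the APC/C, 12 of 18 were tested, 6 above 0 and 6 below, with a median of −0.01. UBE2D1, an E2 enzyme that works with the complex, read 10.52, 10.64, 10.61 and 10.89 in saline and 10.23, 10.48, 10.23 and 10.39 in dexamethasone. Its difference was −0.33 (SE 0.10, limma adjusted p = 0.302), with groups apart. CDC16, a core subunit of the complex, stood at 0.33 (SE 0.11, limma adjusted p = 0.321), higher with dexamethasone in a comparison of 3 saline with 4 dexamethasone samples. CDC20, the coactivator that MAD2L1 holds back, was looked up after the values were seen and stood at −0.30 (SE 0.11, limma adjusted p = 0.350), with overlapping groups.

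Of CDK1 and its regulators, 12 of 21 were tested, 5 above 0 and 7 below, with a median of −0.09. CDK7, the kinase that activates CDK1, stood at 0.40 (SE 0.14, limma adjusted p = 0.341), and AURKB, the chromosomal passenger kinase, at −0.25 (SE 0.09, limma adjusted p = 0.346). CDK1 itself, also looked up afterwards, gave −0.25 (SE 0.09, limma adjusted p = 0.349). In the spindle checkpoint and securin branch 10 of 23 were tested, 4 above 0 and 6 below, with a median of −0.10. BUB1B, a checkpoint kinase-like protein, stood at −0.22 (SE 0.11, limma adjusted p = 0.407) over 3 saline and 4 dexamethasone samples. WAPL, which releases cohesin from chromosomes, stood at −0.23 (SE 0.15, limma adjusted p = 0.499), but at −0.13 without dexamethasone sample 3, −0.05 without the array of dexamethasone samples 3 and 4, and −0.034 as the mean of its probes. Without the array of dexamethasone samples 1 and 2 it stood at −0.40. The CDK7 value was 0.22 without the array of saline samples 3 and 4.

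Among the other cyclins and CDK inhibitors 11 of 22 were tested, 5 above 0 and 6 below. CCND2, a D-type cyclin of G1 phase, had a difference as large as those of UBE2C and CKS2, −0.60 (SE 0.19, limma adjusted p = 0.310), and CDK4, its kinase partner, stood at 0.27 (SE 0.13, limma adjusted p = 0.369). Of the SCF ligase genes 10 of 16 were tested, 5 on each side of 0, and FBXW11 stood at −0.48 (SE 0.16, limma adjusted p = 0.319) and FBXO7 at −0.19 (SE 0.15, limma adjusted p = 0.544). Of the DREAM and MuvB subunits and the transcription factors of the G2 and M phase genes, 12 of 25 were tested, 6 on each side of 0. MYBL2, which works with MuvB at late cell cycle promoters, stood at −0.32 (SE 0.10, limma adjusted p = 0.310), and TFDP1, the E2F partner, at 0.37 (SE 0.15, limma adjusted p = 0.359), but at 0.25 without saline sample 3 and 0.59 without the array of saline samples 1 and 2. Without the array of saline samples 3 and 4 the values were smaller for TFDP1 (0.16), CDK4 (0.16), FBXW11 (−0.25) and MYBL2 (−0.21), and 0.056 for FBXO7. FBXO7 stood at −0.093 without saline sample 3, −0.079 without saline sample 4 and −0.44 without the array of saline samples 1 and 2.

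**Figure D4:**
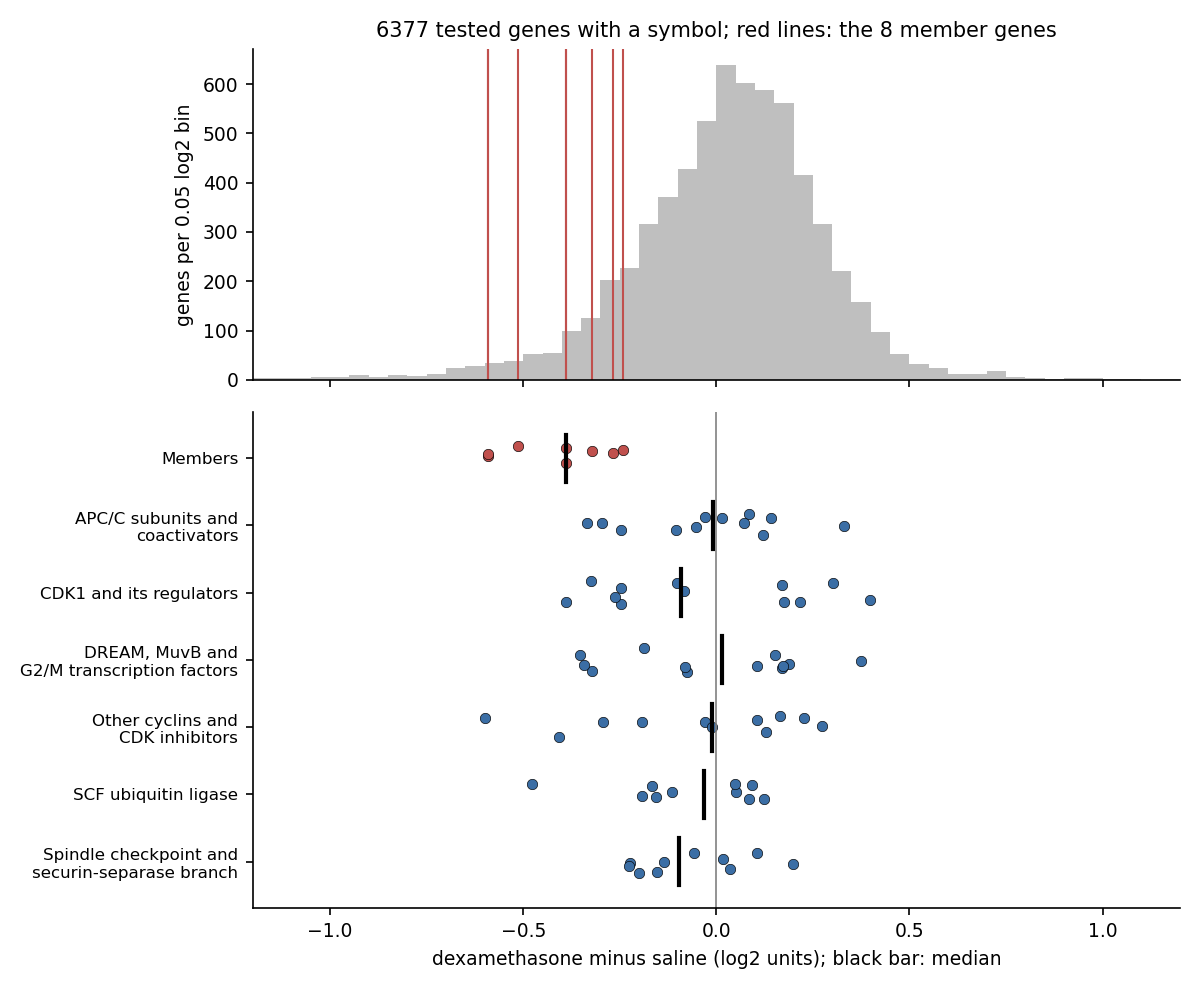
Upper panel: number of tested genes with a symbol (6377) per bin of 0.05 log2 units of the difference between dexamethasone and saline, with red lines for the 8 genes. Lower panel: the same difference for the 8 genes and for each related list, 1 point a gene and a black bar at the median, which is −0.39 for the 8 genes and between −0.10 and 0.01 for the lists (17 of the genes in the upper panel lie outside the range drawn).

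The genes whose sample-to-sample pattern lay closest to the mean pattern of the 8 were sought among 5715 genes with a symbol and all 8 values, as the root mean square distance in log2 units over the 8 samples with the dye removed. The closest were NR1H3 at 0.032, TTN at 0.058, FBN2 at 0.062, and HSPBAP1 and TYW3 at 0.064 each, where the median gene lay at 0.281. Among the 8 genes themselves the distances ran from 0.034 for MAD2L1 to 0.127 for CKS2, so NR1H3 lay nearer to the mean pattern than any of the 8 that made it. That mean pattern holds the group difference, at 0.15 to 0.32 in saline samples and −0.25 to −0.17 in dexamethasone samples. The 8 genes were chosen by this contrast. The closest genes differed by −0.40 for NR1H3, −0.36 for TTN, −0.32 for FBN2, −0.37 for HSPBAP1 and −0.32 for TYW3. A small distance thus takes in the group difference, and a pattern shared within the groups was not tested.

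Markers of the cell types that whole forebrain can hold are given beside these values, as each list's mean deviation from its genes' averages over all samples, in log2 units. The neural progenitor list, 5 of 12 genes tested, lay from −0.09 to 0.02 in saline samples and from −0.10 to 0.12 in dexamethasone samples. The oligodendrocyte lineage list, 6 of 15 tested, lay from −0.02 to 0.10 and from −0.19 to 0.21. The astrocyte list, 9 of 11 tested, lay from −0.06 to −0.02 and from −0.15 to 0.13, and the neuron list, 5 of 12 tested, from −0.34 to 0.08 and from −0.25 to 0.43. In each of these lists the groups overlapped and no gene was called by limma.

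The vessel list, 5 of 12 tested, lay from −0.27 to 0.05 in saline and from −0.04 to 0.17 in dexamethasone, and PECAM1, FLT1, KDR and PDGFRB were not well above background in any sample. The microglia list, 4 of 10 tested, lay from −0.17 to 0.29 and from −0.21 to 0.09, and the leukocyte list, 4 of 11 tested, from −0.07 to 0.13 and from −0.09 to −0.02, with PTPRC and CD3E not above background anywhere. The erythroid list, 3 of 10 tested, lay from −0.63 to 0.27 and from −0.22 to 0.22. The part of the cell makeup in the members' values was not tested.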

How the data were processed

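RNA of 8 forebrain samples was hybridised to 4 Agilent 2-colour rabbit arrays. Per the file headers, the authors scanned the arrays and extracted spot intensity with Feature Extraction 11.0.1.1, while the submitters' processing notes name version 10.7.3.1. The deposited series table holds a normalised signal per probe and sample, scaled so that each column's median is 1. It matched the scanner files' median signal minus median background, rescaled per channel, and it served as an alternative.

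From the scanner files, mean and background intensity were corrected with normexp (offset 50), normalised by loess within arrays and by Aquantile between them in limma 3.58.1 (R 4.3.3), and outlier spots were left out. Spots of a probe were averaged. A probe was kept if its spots passed the scanner's test against background in 4 or more samples, and a gene was represented by its kept probe with the highest mean and needed at least 3 values in each group. The limma fit had group and dye as terms and array as a random block (correlation 0.238), with Benjamini-Hochberg adjustment over 11273 genes and calls at an adjusted p under 0.05. It called 7 genes, 2 higher and 5 lower. The fit was tested on simulated data.

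The members, the related lists and the rule for named genes were chosen with earlier results of these data known. The genes named by that rule are the members with every probe, the pair with the smallest p of each related list, and the 5 genes with the closest sample pattern. CDC20 and CDK1 were added outside the rule, after the values were seen. Gene symbols came from RefSeq through the array's accessions: 22353 of 43603 probes had 1 symbol, 3 had several and 21247 had none. Promoter and protein motifs of the members were not analysed here. The labels name the samples biological replicates, without litter. The alternatives covered background correction, normalisation, the filters, the choice of probe, the terms of the fit, the deposited table and leaving out each sample or array.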

Additional observations from a re-analysis of the deposited data

Results flagged for a closer look

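Among the 24 probes of the 8 genes and the 12 related genes named in the text for their small p, 70 groups of 4 samples were searched for a sample that stood apart from the rest of its group, by Dixon's ratio of its gap to the range. The FBXO5 probe A_04_P070819 was the single case: dexamethasone sample 4 read 8.76, the nearest of the others read 8.58, and the ratio was 0.841, above Dixon's critical value for 4 samples. Chance alone flags about 1 in 20 such groups.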

How the results depend on the processing

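All 224 values of the 8 genes under 28 alternatives lay below 0, which the choice of the genes favours, and their median lay between −0.73 and −0.33. It was −0.70 with the scanner's processed signals, −0.73 with scaling to the 75th percentile, and −0.73 with loess alone, where the median of all genes was also −0.59 and 76.6% lay below 0. In the deposited table the median of all genes was 0.13, 36.0% lay below 0, and the 8 genes' median was −0.42. Leaving out a sample or an array gave medians of −0.43 to −0.35. Differences from the processed signals were larger, −0.76 for FBXO5, −0.64 for CCNF and −0.42 for PTTG1.

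The number of genes called, 7 (2 higher, 5 lower), was 14 with processed signals (6 higher, 8 lower), 15 with the 75th percentile (6 higher, 9 lower) and 0 with loess alone. Without background correction it was 8 (4 higher, 4 lower). It was 2 with no filter, 3 with the filter in all 8 samples, 11 with probe means, 22 with no array block and 15 with no dye term. Leaving out samples or arrays gave 0 to 2215. It was 0 without any 1 dexamethasone sample or the array of samples 1 and 2, 1 without that of 3 and 4, 11 without saline sample 2, 189 without the array of saline 3 and 4, and 2215 without that of saline 1 and 2. In the last 2 the fitted correlation within arrays was −0.38 and −0.31. The cause was not tested. Of the named related genes, 8 passed the threshold only there, without the array of saline samples 1 and 2.

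With loess alone the sign turned for CDC16 (−0.024), TFDP1 (−0.88) and CDK4 (−0.10), in the deposited table for BUB1B (0.0071), and without the array of saline 3 and 4 for FBXO7 (0.056, with −0.44 as its lowest value when another array was left out). The labels give no litter, so whether the replicate numbers pair the samples cannot be told. Deviations of same-numbered samples, which share a dye, correlated at −0.13 to 0.10. A fit with the replicate number as a block called 1 gene with the same member median, −0.39. Motifs in promoters and proteins were not run.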
